A study of Mus musculus with 12 samples.

Results

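The 40 genes described here are interferon-induced genes, taken by gene symbol from a list of type I and type II interferon targets, out of 55487 genes in the deposited tables. All 40 were found, and all 40 passed the filter on low counts that 15862 genes passed. They were measured by poly(A) RNA sequencing of whole liver from male mice aged 16 to 18 months, in 4 groups of 3 libraries: hepatocyte-specific Foxo3 knockout livers after an overnight fast, knockout livers from fed mice, floxed control livers after an overnight fast, and floxed control livers from fed mice. Knockout mice were Foxo3 flox/flox and Alb-cre positive. Controls were Foxo3 floxed and Cre-negative, so that no control carried the recombinase and all mice carried floxed alleles. The diet was ad libitum apart from the fast. The albumin promoter drives Cre in hepatocytes, so the other cells of the liver keep Foxo3, and a whole-liver library holds both.

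Interferons are secreted by infected or stimulated cells and bind receptors on their neighbours. Type I interferons signal through JAK kinases to a complex that contains STAT2 and IRF9 and binds interferon-stimulated response elements (ISRE), and the response to interferon gamma acts through gamma-activated sites (GAS). The induced genes encode sensors of viral RNA, transcription factors that amplify the response, enzymes that block viral replication, GTPases that attack intracellular pathogens, parts of the antigen-processing machinery, and chemokines that attract T cells. In liver, hepatocytes, Kupffer cells and endothelial cells can all respond.

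Libraries held 17520058 to 22414976 counted reads. Levels are given as CPM, the counts per 1000000 counted reads, scaled with TMM factors of 0.923 to 1.123. Levels of different genes are compared only in TPM, which also corrects for transcript length. The lowest count of a member in any library was 14, for Ifi27l2a, and 8 of the 480 member-by-library values were under 25 counts, where counting alone gives an error of 20% or more. Foxo3 itself, the targeted gene, was at 46.5, 53.5 and 53.3 CPM in fasted knockout livers, 59.4, 58.8 and 62.2 CPM in fed knockout livers, 44.3, 39.9 and 38.0 CPM in fasted control livers and 45.5, 44.5 and 50.4 CPM in fed control livers, so that it was not lower in the libraries labelled knockout (log2 difference 0.33, SE 0.093, adjusted p = 0.45 fasted, and 0.36, SE 0.093, adjusted p = 0.68 fed). A count over the whole gene does not check the deletion of a floxed exon, and directions below rest on the labels. Albumin and the other hepatocyte markers summed to 55200 to 106000 CPM in the 12 libraries. In bulk tissue, fewer cells of a type and less RNA per cell cannot be told apart.

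Promoters of the members were searched for the ISRE and GAS motifs. Interferons act through these motifs, so the counts are not independent of the choice of interferon targets. RefSeq windows on GRCm38.p6, which run from 250 bases before to 50 bases after a gene's start, were available for 31 members and covered 300 bases each. The ISRE core, GAAA followed by any 2 bases and GAAA, was searched on both strands with overlapping matches counted. It was present in 18 of 31 members (58.1%), against 1079 of 27025 genes with a window (3.99%). The GAS motif TTCNNNGAA, which is its own reverse complement, was present in 8 of 31 members (25.8%), against 9.55% of all genes, and both motifs in 5 of 31 (16.1%), against 0.614%. Members with no window were Dhx58, Zbp1, Usp18, Oas2, Mx1, Mx2, Rtp4, Ifi27l2a and Iigp1. A match is a description of letters and is not evidence of binding. Windows of 6 members are printed 5′ to 3′ on the gene's strand, with ISRE cores in capitals. They are Isg15, with 3 overlapping cores, the neighbours Ifit3 and Ifit3b, with 2 cores each, and Gbp3, with 2 in the window printed. Another window of Gbp3, not printed, held 0 cores. The others are Bst2, with 2 overlapping cores, of which the first also overlaps a GAS match, and Cxcl9, which had no match to either motif.
Isg15, chr4:156200769-156201068, minus strand: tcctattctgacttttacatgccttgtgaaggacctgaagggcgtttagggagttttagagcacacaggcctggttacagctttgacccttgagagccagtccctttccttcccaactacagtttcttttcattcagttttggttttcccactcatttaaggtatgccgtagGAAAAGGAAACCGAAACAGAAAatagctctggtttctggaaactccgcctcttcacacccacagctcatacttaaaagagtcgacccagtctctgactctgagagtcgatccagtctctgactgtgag
Ifit3, chr19:34583279-34583578, plus strand: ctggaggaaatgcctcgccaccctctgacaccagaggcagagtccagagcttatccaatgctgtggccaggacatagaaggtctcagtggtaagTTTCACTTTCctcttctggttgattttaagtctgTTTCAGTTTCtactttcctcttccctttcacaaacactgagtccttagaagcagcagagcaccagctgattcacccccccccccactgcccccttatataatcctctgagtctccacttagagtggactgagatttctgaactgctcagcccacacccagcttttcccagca
Ifit3b, chr19:34607707-34608006, plus strand: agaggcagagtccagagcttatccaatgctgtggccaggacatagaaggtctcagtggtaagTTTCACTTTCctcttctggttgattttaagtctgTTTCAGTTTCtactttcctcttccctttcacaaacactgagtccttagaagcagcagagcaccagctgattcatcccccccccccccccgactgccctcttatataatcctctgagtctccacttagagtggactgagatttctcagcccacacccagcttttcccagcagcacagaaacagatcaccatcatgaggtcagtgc
Gbp3, chr3:142559794-142560093, plus strand: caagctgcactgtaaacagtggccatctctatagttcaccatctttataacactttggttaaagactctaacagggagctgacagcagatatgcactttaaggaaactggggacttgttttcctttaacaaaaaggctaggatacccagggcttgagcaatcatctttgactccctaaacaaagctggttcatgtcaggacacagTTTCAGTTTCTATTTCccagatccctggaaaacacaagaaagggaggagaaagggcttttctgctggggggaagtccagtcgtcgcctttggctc
Bst2, chr8:71537423-71537722, minus strand: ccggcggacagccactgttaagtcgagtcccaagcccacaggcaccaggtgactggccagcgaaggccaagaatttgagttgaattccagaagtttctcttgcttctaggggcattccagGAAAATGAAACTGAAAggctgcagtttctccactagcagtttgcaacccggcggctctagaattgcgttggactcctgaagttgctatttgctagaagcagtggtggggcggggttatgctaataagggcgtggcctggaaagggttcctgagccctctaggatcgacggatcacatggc
Cxcl9, chr5:92328030-92328329, minus strand: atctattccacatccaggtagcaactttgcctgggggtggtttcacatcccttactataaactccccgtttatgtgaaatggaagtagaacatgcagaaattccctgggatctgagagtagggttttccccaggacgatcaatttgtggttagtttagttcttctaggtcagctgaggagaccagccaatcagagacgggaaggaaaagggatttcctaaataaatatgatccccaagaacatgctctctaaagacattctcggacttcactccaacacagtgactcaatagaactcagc
The Ifit3 and Ifit3b windows hold the same pair of cores, separated by the same run of letters, at 2 places on chromosome 19. Irf9, Irf7, Ifi44, Oasl1, Oasl2, Cmpk2, Xaf1, Ifit2, Ifi35, Psmb8, Psmb9 and Tap1 had no ISRE core in their windows, like Cxcl9.

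Per unit of length, the most abundant member was Bst2, or tetherin, which holds budding virions at the cell surface, with a median of 259 TPM over the 12 libraries and a range of 202 to 590 TPM. Iigp1, a GTPase that attacks the vacuoles of intracellular parasites, followed at 125 TPM, with a range of 80.8 to 215 TPM that overlaps the lower end of Bst2. The related GTPases Irgm2 and Igtp had medians of 45.2 and 44.5 TPM. Irf7 and Ifi35 both had a median of 28.8 TPM. The other role groups were led by Psmb8 at 19.1 TPM, Isg15 at 16.6 TPM, Ifih1 at 12.4 TPM and Cxcl9 at 8.22 TPM. The lowest member was Oas3, at a median of 0.487 TPM. Iigp1 did not overlap Irgm2, whose highest library was at 75.6 TPM, and every other pair of neighbours in the full order of the 40 members by median TPM overlapped over the libraries.

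One library stood apart from the other 11 in these genes. Fed control replicate 3 was the highest of the 12 libraries for 34 of the 40 members (85%), and it was the highest for 18.2% of all tested genes. Within the fed controls it was the highest for 40 of 40 members, against 39.7% of all tested genes. Its level was a median of 3.71-fold that of the mean of fed control replicates 1 and 2 over the members, with a range of 1.1-fold for Ifi35 to 13-fold for Ifi44, while the median over all tested genes was 1-fold. At least 2-fold was reached by 29 members, against 8.3% of all tested genes, and at least 4-fold by 19 members, against 1.56%. The 6 members with another highest library were Mx2, Ifi27l2a, Psmb9 and Stat2, highest in fasted control replicate 3, Irf9, highest in fasted control replicate 2, and Psmb8, highest in fed knockout replicate 1. The library was singled out from these values, so its excess is a description and was given no test.

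**Figure D1:**
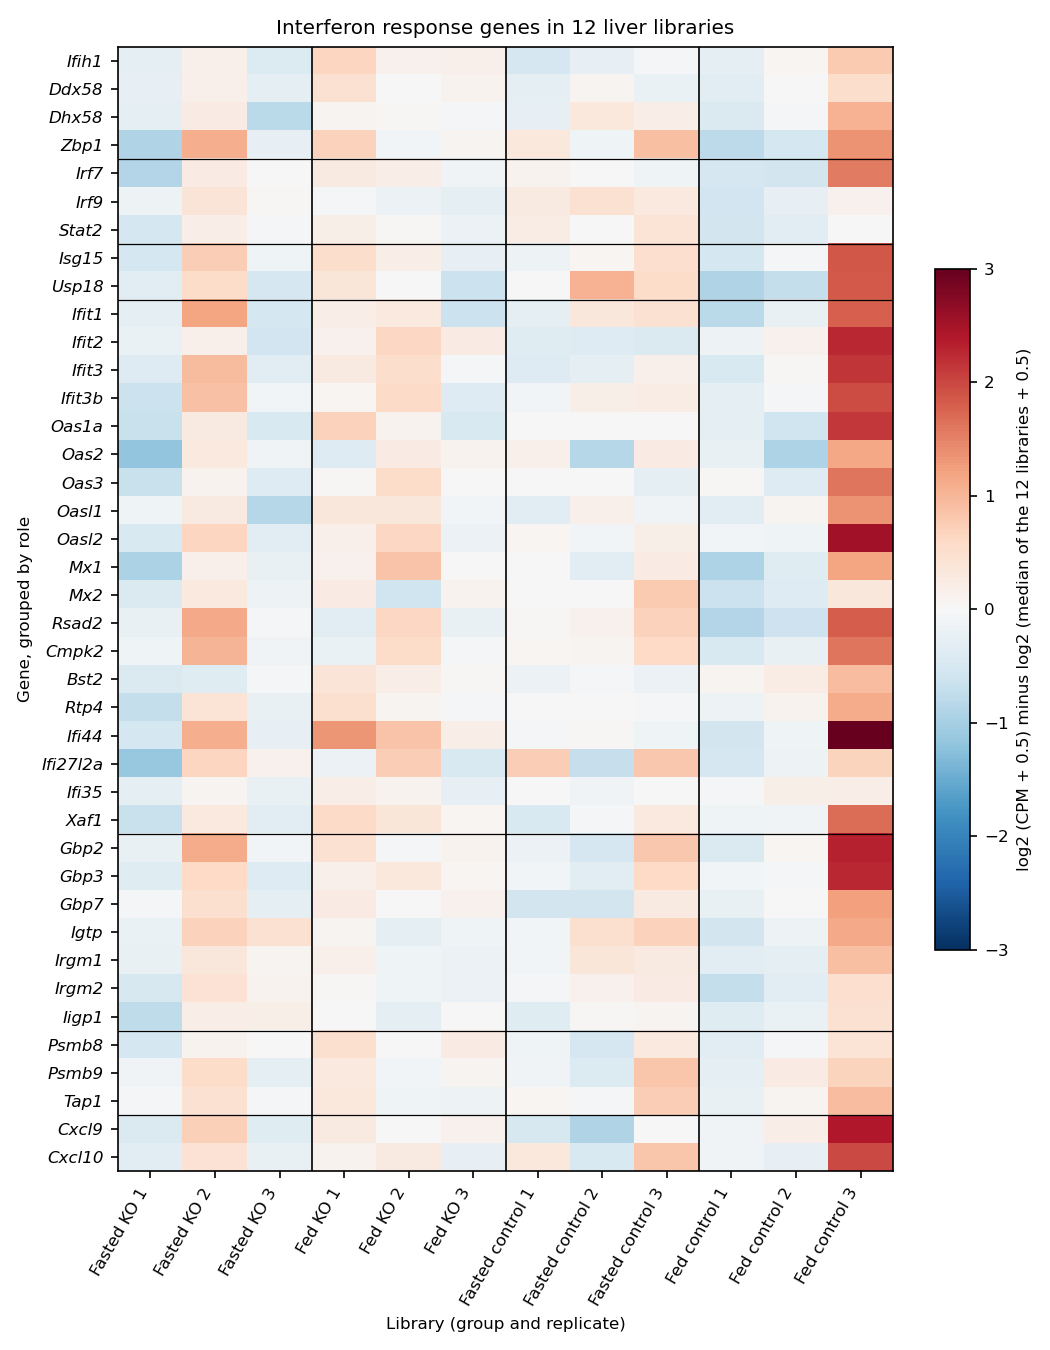
Level of the 40 members (rows, grouped by role) in each of the 12 libraries (columns), as the log2 CPM minus the log2 of the gene's median over the libraries, with 0.5 added to each. The last column, fed control replicate 3, is above the median in 39 of 40 members, and fasted knockout replicate 2, the second column, also has 39 members above it.

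Smaller differences ran over many members in other libraries. On the log2 scale, the median of the 40 members relative to each gene's median over the 12 libraries was -0.42, 0.42 and -0.22 in fasted knockout replicates 1, 2 and 3, and 0.22, 0.12 and -0.05 in fed knockout replicates 1, 2 and 3. It was -0.06, -0.01 and 0.25 in fasted control replicates 1, 2 and 3, and -0.32, -0.12 and 1.29 in fed control replicates 1, 2 and 3. Livers of the same group therefore lay on both sides of the median in all 4 groups. Fasted knockout replicate 2 was the highest of its group in 39 of 40 members (31.1% of all tested genes) and fasted knockout replicate 1 was the lowest in 29 (32.4%). Fed control replicate 1 was the lowest of its group in 34 (29.6% of all tested genes). The median coefficient of variation between the 3 libraries of a group was 38.6% over members in fasted knockout livers, 19.7% in fed knockout livers, 22.6% in fasted control livers and 82.9% in fed control livers. The same median over all tested genes was 14%, 11.8%, 14.6% and 15% in that order of groups.

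The 4 sensors of foreign nucleic acid had a median excess of 2.18-fold in fed control replicate 3 over the mean of the other fed controls. Ifih1, which encodes the long double-stranded RNA sensor MDA5, was at 33.9, 46.4 and 31.5 CPM in fasted knockout livers, 65.4, 45.8 and 46.4 CPM in fed knockout livers, 29.2, 35.1 and 40 CPM in fasted control livers and 34.5, 43.6 and 72.6 CPM in fed control livers. The highest value was fed control replicate 3 and the next was fed knockout replicate 1, and the groups overlapped in every comparison over all 12 libraries. Ddx58, which encodes the sensor RIG-I, ranged from 24.8 to 45.8 CPM over the 12 libraries, and Dhx58, which encodes their relative LGP2, ranged from 5.87 to 22.7 CPM. Zbp1, a sensor of Z-form nucleic acid, was at 4.51, 19.3 and 7.31 CPM in fasted knockout livers, 14.5, 8.31 and 9.3 CPM in fed knockout livers, 11.1, 8.03 and 16.8 CPM in fasted control livers and 4.94, 5.93 and 23.2 CPM in fed control livers. It was high in 1 library of the fasted knockout group and in 1 of the fed control group, and low in the others of those groups.

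Among the transcription factors, Irf7, which amplifies type I interferon production, was at 25, 55.5 and 46.0 CPM in fasted knockout livers, 56.3, 53.8 and 43.4 CPM in fed knockout livers, 50.4, 47.3 and 42.6 CPM in fasted control livers and 32.9, 31.6 and 137 CPM in fed control livers. Fed control replicate 3 was over 2-fold any other library, and the other fed controls were below every fed knockout and every fasted control. Irf9, the DNA-binding part of the ISRE-binding complex, was at 32.1, 47.0 and 36.6 CPM in fasted knockout livers, 34.8, 31.6 and 28.8 CPM in fed knockout livers, 42.9, 49.2 and 43.5 CPM in fasted control livers and 23.7, 30.0 and 38.9 CPM in fed control livers. The 3 fasted controls were above all 3 fed controls, while the knockout groups overlapped. Stat2, which gives that complex its activation domain, was at 40.2, 66.9 and 55.3 CPM in fasted knockout livers, 65.5, 59.1 and 50.9 CPM in fed knockout livers, 67.8, 58.7 and 76.8 CPM in fasted control livers and 39.6, 46.7 and 57.3 CPM in fed control livers. Fasted controls were again above all fed controls, by a narrow gap between the nearest libraries, and the knockout groups overlapped. Irf9, at chr14:55603571-55610030 on the plus strand (mm10), overlaps Rnf31 on the same strand, so reads in the shared stretch may have been counted to either gene or dropped.

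Isg15, a ubiquitin-like modifier that is attached to proteins, was at 3.31, 8.71 and 4.55 CPM in fasted knockout livers, 7.42, 5.84 and 4.14 CPM in fed knockout livers, 4.45, 5.26 and 7.29 CPM in fasted control livers and 3.37, 4.81 and 19.5 CPM in fed control livers. Usp18, the protease that removes it and a feedback inhibitor of the type I receptor, was at 6.32, 12.1 and 5.58 CPM in fasted knockout livers, 10.6, 8.2 and 5.0 CPM in fed knockout livers, 8.05, 17.2 and 12.2 CPM in fasted control livers and 4.13, 4.72 and 30.2 CPM in fed control livers. Both genes were highest in fed control replicate 3. For both, the groups overlapped in every comparison over all 12 libraries.

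The 19 antiviral effectors held the widest range. Ifi44, an interferon-induced protein with a GTPase-like fold, was at 1.77, 6.42 and 2.24 CPM in fasted knockout livers, 7.62, 5.39 and 3.23 CPM in fed knockout livers, 2.67, 2.83 and 2.49 CPM in fasted control livers and 1.71, 2.48 and 27.3 CPM in fed control livers. Ifit3, which with its relatives binds foreign RNA ends, was at 8.62, 22.5 and 9.09 CPM in fasted knockout livers, 13.9, 16.9 and 11.1 CPM in fed knockout livers, 8.74, 9.44 and 12.9 CPM in fasted control livers and 8.3, 11.9 and 52.6 CPM in fed control livers. Both were highest in fed control replicate 3, and in fasted knockout livers both were highest in replicate 2. Ifit1, Ifit3 and Ifit3b, whose windows each hold 2 ISRE cores with the same letters, were 5.13-, 5.21- and 5.06-fold higher in fed control replicate 3 than in the mean of fed control replicates 1 and 2. Of 50-base stretches of Ifit3 and Ifit3b transcripts, 51.2% and 45% also occur in another gene, chiefly each other, and 57.6% of those of Oas1a occur in its paralogs, so the split of reads among these genes is uncertain.

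Oasl2, an oligoadenylate synthetase-like protein, was at 3.49, 8.17 and 3.91 CPM in fasted knockout livers, 5.59, 7.92 and 4.41 CPM in fed knockout livers, 5.28, 4.75 and 5.73 CPM in fasted control livers and 4.7, 4.58 and 31.2 CPM in fed control livers. Ifit2 was at 4.33, 5.61 and 3.22 CPM in fasted knockout livers, 5.54, 7.98 and 6.08 CPM in fed knockout livers, 3.8, 3.73 and 3.58 CPM in fasted control livers and 4.51, 5.56 and 25.8 CPM in fed control livers. The 3 fasted controls lay below every fed control for Ifit2, and all libraries but fed control replicate 3 were under 8 CPM. Bst2 was at 71.6, 74.8 and 93.6 CPM in fasted knockout livers, 127, 111 and 100 CPM in fed knockout livers, 85.8, 94.0 and 86.2 CPM in fasted control livers and 103, 113 and 184 CPM in fed control livers. All 6 fasted livers were below all 6 fed livers, in both genotypes, and Bst2 was the 1 member for which this held (2.5% of members, against 2.34% of all tested genes, and 3.66% without fed control replicate 3). No member had all fasted livers above all fed livers, against 2.58% of all tested genes, and 3.26% without that library. Among the remaining effectors, the highest of the 12 libraries was fed control replicate 3 except for Mx2 and Ifi27l2a, and the smallest excess over the other fed controls was that of Ifi35, at 22.4 CPM against 18.7 and 22.0 CPM.

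The 7 GTPases induced mainly by interferon gamma had a median excess of 2.57-fold in fed control replicate 3 over the mean of the other fed controls, beside 4.4-fold for the antiviral effectors. They differed among themselves. Gbp2 and Gbp3 were at 6.01- and 5.31-fold and had medians of 6.11 and 6.1 TPM, while the abundant Irgm2 and Iigp1 were at 1.99- and 1.68-fold. Gbp7, with a median of 7.63 TPM, was at 2.57-fold. Irgm1, with a median of 21.5 TPM, was at 2.29-fold, and Igtp, with a median of 44.5 TPM, was at 2.81-fold. Iigp1 was at 185, 361 and 353 CPM in fasted knockout livers, 311, 261 and 317 CPM in fed knockout livers, 243, 320 and 331 CPM in fasted control livers and 243, 273 and 434 CPM in fed control livers. The groups overlapped throughout. Gbp3, a guanylate-binding protein, was at 6.05, 12.2 and 5.99 CPM in fasted knockout livers, 8.83, 10.1 and 8.28 CPM in fed knockout livers, 7.51, 6.22 and 12.3 CPM in fasted control livers and 7.5, 7.57 and 40 CPM in fed control livers, again with 1 fed control far above the other libraries. Igtp and Irgm2 overlap on the same strand, and their counts may be split between them.

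Psmb8, a catalytic subunit of the immunoproteasome, which cuts proteins into peptides for MHC class I, was at 18.2, 28.7 and 26.9 CPM in fasted knockout livers, 37.4, 26.1 and 31.5 CPM in fed knockout livers, 24.3, 18.7 and 32.6 CPM in fasted control livers and 21.3, 25.5 and 35.5 CPM in fed control livers. Psmb9, another such subunit, and Tap1, part of the peptide transporter, ranged from 12 to 29.0 CPM and from 23.5 to 53.0 CPM. The antigen-processing members had a median excess of 1.6-fold in fed control replicate 3 and overlapped between groups. The chemokine Cxcl9, induced chiefly by interferon gamma, was at 7.07, 16.3 and 7.54 CPM in fasted knockout livers, 12, 9.83 and 10.8 CPM in fed knockout livers, 6.87, 4.97 and 9.78 CPM in fasted control livers and 9.02, 11.4 and 53.6 CPM in fed control livers. Cxcl10, which binds the same receptor, was at 2.03, 3.77 and 2.19 CPM in fasted knockout livers, 2.87, 3.31 and 2.15 CPM in fed knockout livers, 3.41, 1.81 and 5.06 CPM in fasted control livers and 2.42, 2.15 and 11.9 CPM in fed control livers. For both chemokines fed control replicate 3 was over 2-fold any other library.

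**Figure D2:**
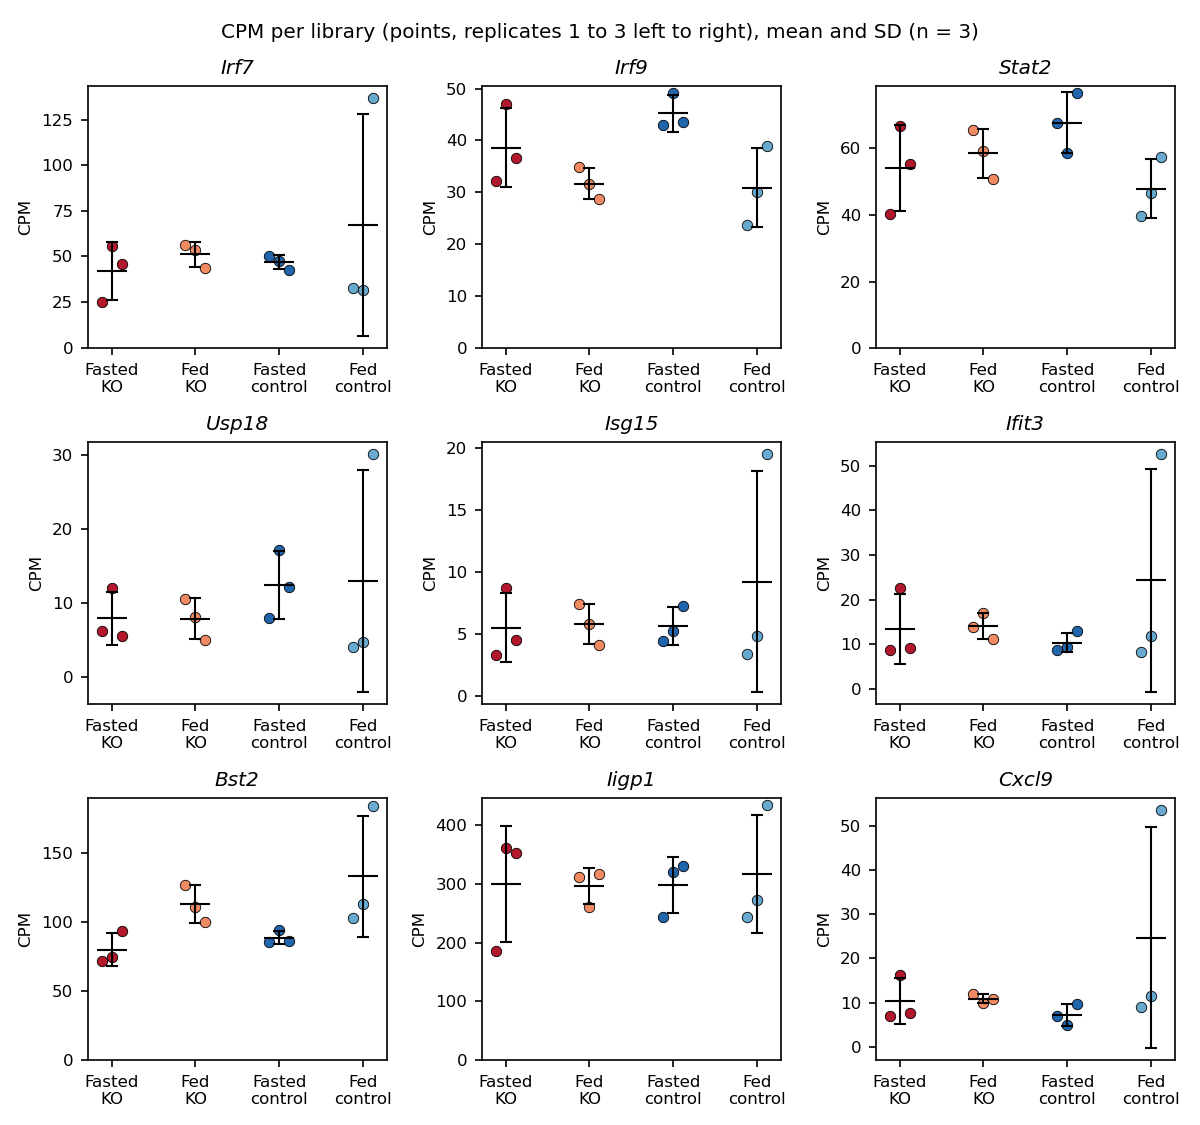
CPM of 9 members in each library, with points for replicates 1, 2 and 3 from left to right in each group and a bar for the mean and SD (n = 3); each panel has its own vertical axis. The third fed control is the highest point for 7 of the 9 genes, the exceptions being Irf9 and Stat2, and the fasted groups of Bst2 lie below the fed groups.

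Members with and without an ISRE core in the window had overlapping excesses in fed control replicate 3 over the mean of the other fed controls. The median was 4.58-fold over the 18 members with a core, with a range of 1.33- to 7.02-fold, and 3.73-fold over the 13 members without one, with a range of 1.1- to 13-fold. Stat2, with a core, was at the low end, and Ifi44, with none, was at the high end. The 9 members with no window had a median of 2.5-fold.

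Genes upstream of the response were measured from a separate list of 49 pathway genes, of which 39 were tested. The interferon transcripts themselves were at or near the limit of detection. Ifna1, Ifna2, Ifna4, Ifna5, Ifnl2 and Ifnl3 had 0 counts in all 12 libraries. Ifnb1 had 2 counts in fed control replicate 3 and 0 elsewhere, and Ifng had 8 counts in all, none of them in fed control replicate 3. At this depth a difference in the ligands was not detectable. The type I receptor genes were level, with Ifnar1 at 37.8 to 44.2 CPM and Ifnar2 at 22.8 to 29.1 CPM over all libraries. Irf1, an interferon-induced transcription factor, was highest in fed control replicate 3, at 41.8 CPM. All 5 genes of MHC class II presentation were highest in that library, with a sum of 482 CPM against 140 to 311 CPM in the others.

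Markers of some immune cells were also high in fed control replicate 3, and those of others were not. The 8 markers of infiltrating macrophages and monocytes summed to 83.2 CPM there, against 15.6 to 35.4 CPM in the other 11 libraries, and 6 of the 8 were highest there. The exceptions lay within the range of the others: Ly6c2, at 1.36 CPM against 0.173 to 1.91 CPM, and Itgam, at 0.998 CPM against 0.522 to 1.73 CPM. Cd68 and Gpnmb, at 26.8 and 19.0 CPM, were the largest parts of the sum. The 10 T and NK cell markers summed to 14.8 CPM against 2.89 to 10.2 CPM, with 5 highest there. Klrb1c and Ncr1, at 4 and 5 counts in that library, were not among those 5. The 4 plasmacytoid dendritic cell markers summed to 2.99 CPM against 0.561 to 1.53 CPM, with 4 highest there. Siglech, Ccr9, Klk1 and Cox6a2 had only 31, 21, 9 and 5 counts in that library, so this sum rests on few reads. B cell markers, at 5.53 CPM against 1.98 to 16.9 CPM, lay within the range of the others, and so did the summed neutrophil markers, at 3.13 CPM against 1.24 to 8.71 CPM, with Ly6g at 0 in that library. The 6 Kupffer cell markers went both ways. Marco, at 2.72 CPM against 7.94 to 83.9 CPM, and Timd4, at 3.81 CPM against 4.39 to 22.9 CPM, were lowest of the 12 libraries there, Cd5l, at 242 CPM against 80.2 to 218 CPM, was highest, and their sum was 443 CPM against 225 to 546 CPM. The 5 stellate cell markers summed to 466 CPM against 137 to 318 CPM, with 4 highest there, and the 4 endothelial markers to 180 CPM against 95.5 to 148 CPM, with 3 highest there. Of the 6 hepatocyte markers, 4 were lowest of the 12 libraries there. They were Hnf4a, at 382 CPM against 490 to 848 CPM in the others, Cps1, at 1770 CPM against 2040 to 5220 CPM, Asgr1, at 312 CPM against 385 to 521 CPM, and Apoa1, at 3480 CPM against 3640 to 7160 CPM. The sum of the 6, most of it Alb, was 59200 CPM against 55200 to 106000 CPM. In fasted knockout replicate 2, the next library by its members, macrophage and monocyte markers summed to 29.0 CPM against 16.8 and 17.8 CPM in the other fasted knockout livers, and T and NK cell markers to 2.92 CPM against 4.91 and 3.91 CPM. The part of these cells in the members' levels was not tested.

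**Figure D3:**
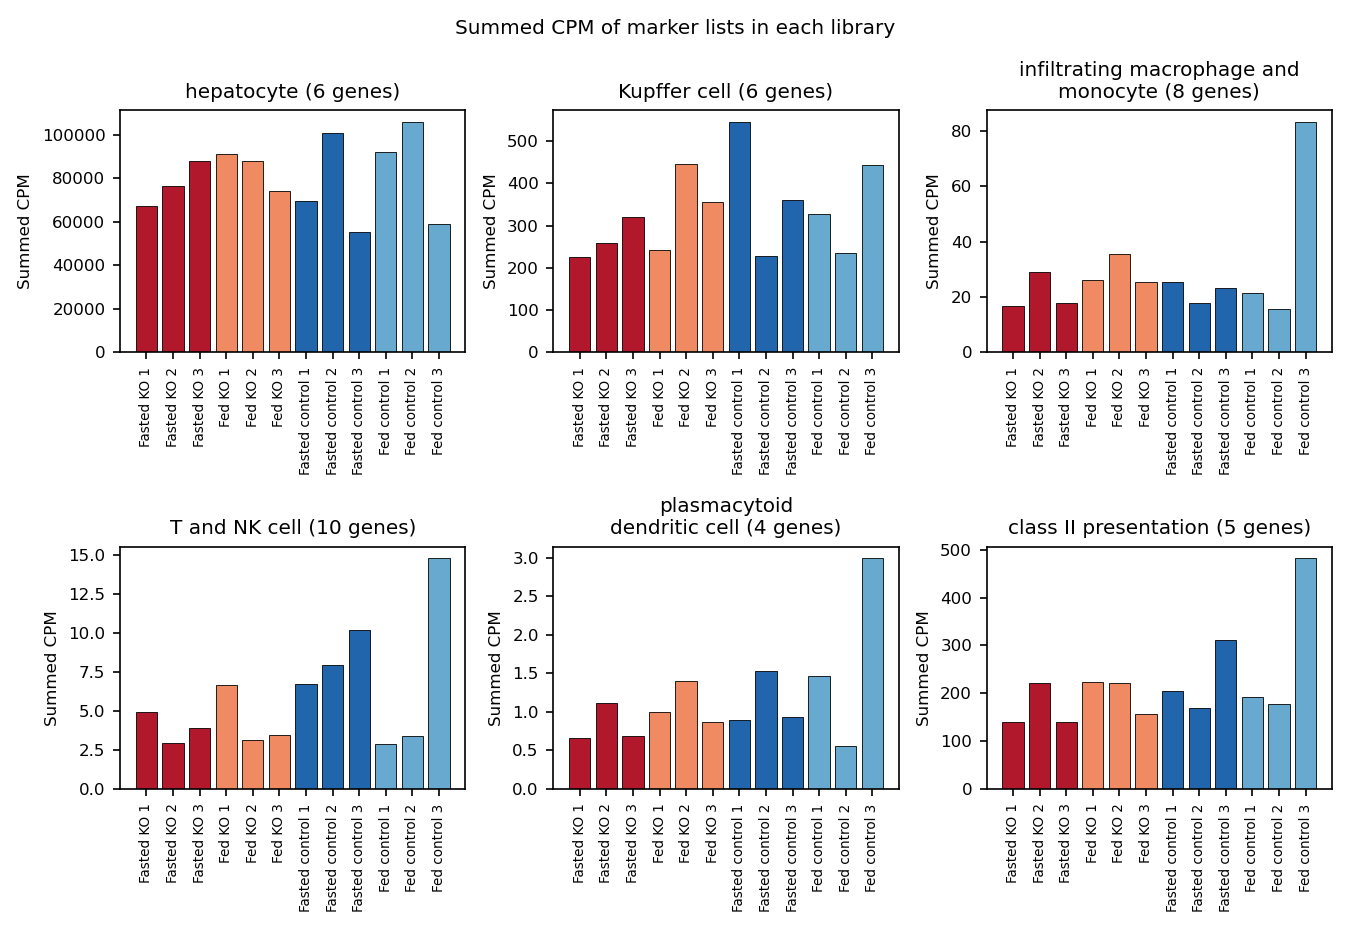
Summed CPM of 5 lists of cell type markers and of the class II presentation genes in each library (bars), coloured by group, with a separate vertical axis in each panel. The last bar, fed control replicate 3, is the highest for macrophages and monocytes (83.2 CPM), T and NK cells (14.8 CPM), plasmacytoid dendritic cells (2.99 CPM) and class II presentation (482 CPM), and its sums for hepatocytes and Kupffer cells, carried mostly by Alb and by Cd5l and Clec4f, lie between those of the others although 4 of the 6 hepatocyte markers and 2 of the 6 Kupffer cell markers are lowest there.

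Fed knockout livers were compared with fed control livers. By edgeR's quasi-likelihood test with Benjamini-Hochberg adjustment, none of the 40 members was called at an adjusted p of 0.05 or less. The same held for all tested genes (0.0% called). None of the members reached an unadjusted p under 0.05, against 6.12% of all genes, and 0 were called by DESeq2, against 0.195%. The median log2 difference of the members was -0.36, with 8 of 40 above 0, beside -0.01 over all genes, with 48.0% above 0. The members with the smallest p were Cxcl9, at -1.18 (SE 0.653, adjusted p = 0.84), Oasl2, at -1.18 (SE 0.7, adjusted p = 0.86), Gbp3, at -1.02 (SE 0.634, adjusted p = 0.87), and Ifit2, at -0.87 (SE 0.556, adjusted p = 0.87). No member had all fed knockout livers above or all below the fed controls (0 of 40 in either direction, against 6.31% and 6.0% of all tested genes).

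Without fed control replicate 3 the direction turned. The median became 0.39 with 39 of 40 members above 0, and the values of Cxcl9, Oasl2, Gbp3 and Ifit2 became 0.08, 0.35, 0.25 and 0.36. No member was called (0.0% of all 16171 genes then tested), 4 had an unadjusted p under 0.05, against 4.77% of all genes, and 0 were called by DESeq2, against 0.0989% of all genes. The smallest p-values were those of Mx1, a dynamin-like GTPase that blocks influenza virus, at 1.31 (SE 0.472, adjusted p = 0.96), Ifi44, at 1.36 (SE 0.529, adjusted p = 0.96), Irf7, at 0.65 (SE 0.269, adjusted p = 0.96), and Stat2, at 0.43 (SE 0.196, adjusted p = 0.96). All 3 fed knockout livers were above both remaining fed controls for 15 members (37.5%), against 13.0% of all tested genes, and below for 0, against 12.5%. These 15 were Cmpk2, Ddx58, Gbp3, Ifi44, Ifih1, Irf7, Irgm1, Irgm2, Mx1, Psmb8, Rsad2, Stat2, Usp18, Xaf1 and Zbp1. The library was left out because of these genes' own values, so the count is a description.

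Fasted knockout livers were compared with fasted control livers, a comparison that does not use the fed controls. No member was called (0.0315% of all genes), and 0 were called by DESeq2, against 0.258% of all genes. None reached an unadjusted p under 0.05, against 9.01% of all genes. The median was -0.09 with 13 of 40 above 0, against 47.9% of all genes, and the range was -0.63 to 0.51. The members' median, count above 0 and range were the same without fed control replicate 3, where 47.5% of all genes were above 0. In that fit 0 members were called by either tool, against 0.0371% of all genes by edgeR and 0.408% by DESeq2. There 0 members had an unadjusted p under 0.05, against 10.6% of all genes. The smallest p-values were those of Stat2, at -0.32 (SE 0.186, adjusted p = 0.63), Irf9, at -0.23 (SE 0.172, adjusted p = 0.72), Mx2, at -0.41 (SE 0.352, adjusted p = 0.75), and Dhx58, at -0.33 (SE 0.376, adjusted p = 0.83). No member separated the groups in either direction, against 6.82% of all tested genes above and 7.17% below. The median was 0.13 without fasted knockout replicate 1, -0.42 without fasted knockout replicate 2 and 0.06 without fasted control replicate 3, so single libraries set its sign.

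Over both feeding states, the mean knockout difference had a median of -0.23 over the members, with 3 of 40 above 0, against 46.4% of all genes. Without fed control replicate 3 the median was 0.17 with 34 members above 0, against 48.0% of all genes. No member was called in either fit, against 0.0126% and 0.0124% of all genes, and DESeq2 called 0 in both, against 0.296% and 0.21%. At an unadjusted p under 0.05 there were 0 members over all libraries and 1 without fed control replicate 3, against 7.91% and 7.58% of all genes. The smallest p-values over all libraries were those of Cxcl10, at -0.68 (SE 0.445, adjusted p = 0.72), Bst2, at -0.20 (SE 0.136, adjusted p = 0.73), Usp18, at -0.67 (SE 0.523, adjusted p = 0.78), and Dhx58, at -0.33 (SE 0.265, adjusted p = 0.78).

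**Figure D4:**
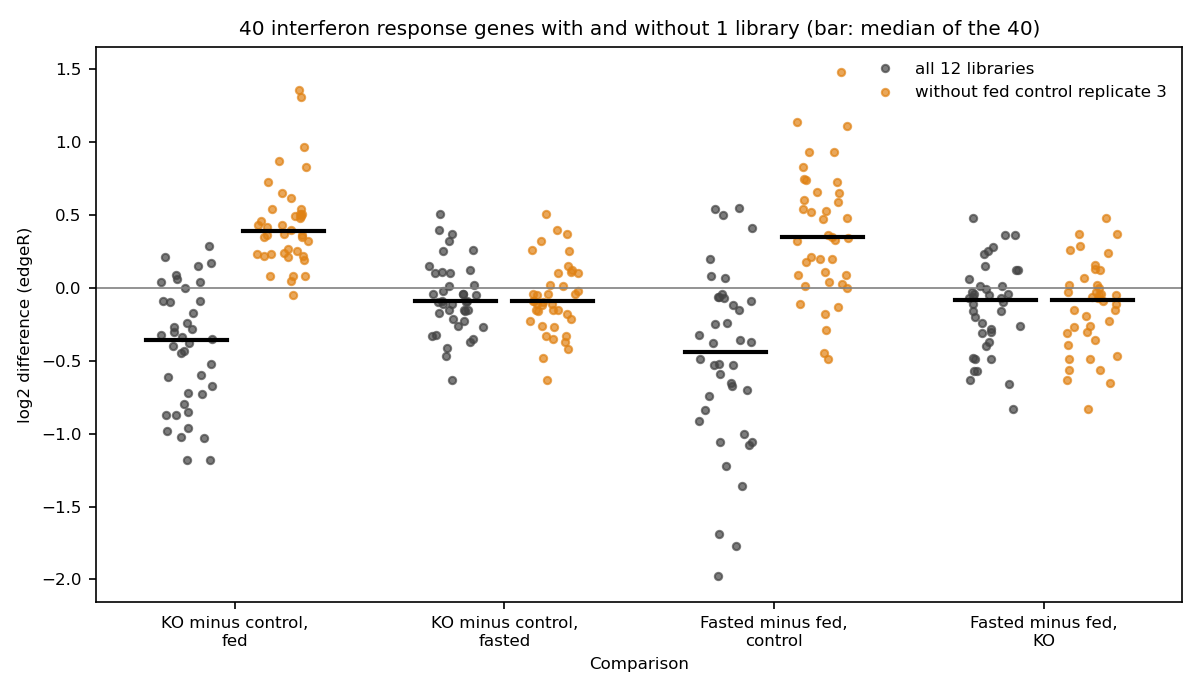
Log2 difference of each of the 40 members (points) in 4 comparisons, over all 12 libraries and without fed control replicate 3, with the median of the 40 as a bar. Leaving out that library moves the median to 0.39 against -0.36 in fed livers and to 0.35 against -0.44 for fasting in controls, while the comparisons without fed controls keep their medians.

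Overnight fasting was first examined in control livers. No member was called, against 4.14% of all tested genes, and 5 of 40 had an unadjusted p under 0.05, against 19.4% of all tested genes. The median was -0.44 with 7 of 40 above 0, against 49.5% of all genes. Irf9 was at 45.2 ± 3.5 CPM in fasted and 30.9 ± 7.6 CPM in fed control livers (SD, n = 3 each), a log2 difference of 0.55 (SE 0.173, adjusted p = 0.10), and Stat2 at 67.8 ± 9.1 CPM in fasted and 47.9 ± 8.9 CPM in fed control livers, a difference of 0.50 (SE 0.186, adjusted p = 0.16). Bst2 was at 88.7 ± 4.6 CPM in fasted and 133 ± 44 CPM in fed control livers, a difference of -0.59 (SE 0.193, adjusted p = 0.11), and Ifit2 at 3.71 ± 0.11 CPM in fasted and 12 ± 12 CPM in fed control livers, a difference of -1.69 (SE 0.574, adjusted p = 0.14). DESeq2 called 2 members, Bst2 and Ifit2, both lower in fasted livers, against 7.56% of all genes. Irf9 and Stat2 separated the groups with fasted livers above (2 of 40, against 11.5% of all genes), and Bst2 and Ifit2 with fasted livers below (2 of 40, against 10.9%).

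Without fed control replicate 3 the median was 0.35 with 33 of 40 members above 0, against 52.6% of all genes. Irf9, which was not called over all 12 libraries, was then the 1 member called by edgeR, higher in fasted livers by 0.75 on the log2 scale (SE 0.159, adjusted p = 0.024), against 3.33% of all genes called. At an unadjusted p under 0.05 there were 9 of 40 members, against 16.5% of all genes. The library was left out because of the members' own values, so these calls and counts are descriptions. DESeq2 called 3 members, Irf9, Stat2 and Usp18, all higher in fasted livers, against 5.73% of all genes. The values of Usp18 and Stat2 in edgeR were 1.48 (SE 0.436, adjusted p = 0.11) and 0.65 (SE 0.196, adjusted p = 0.11). Fasted livers were above both remaining fed controls for 15 members (37.5%), against 16.9% of all genes, and below for 2, Bst2 and Ifit2, against 16.4%. Those above were the transcription factors Irf7, Irf9 and Stat2, the GTPases Igtp, Irgm1 and Irgm2, and Cmpk2, Ifi44, Mx1, Mx2, Oas1a, Oasl2, Rsad2, Usp18 and Zbp1.

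In knockout livers, fasting gave no called member over all libraries, against 2.48% of all genes, with 1 member at an unadjusted p under 0.05, against 14.6%, and 0 called by DESeq2, against 5.11% of all genes. The median was -0.08 with 12 of 40 above 0, against 49.2% of all genes. Bst2 was at 80 ± 12 CPM in fasted and 113 ± 14 CPM in fed knockout livers (SD, n = 3 each), a log2 difference of -0.49 (SE 0.193, adjusted p = 0.25). Bst2 lies at chr8:71534255-71537456 on the minus strand (mm10), and was the 1 member whose fasted knockout livers were all below the fed ones, against 11.7% of all genes, and 0 members lay above, against 11.5%. Ifih1, at -0.49 (SE 0.266, adjusted p = 0.44), Irf9, at 0.28 (SE 0.173, adjusted p = 0.50), and Ddx58, at -0.31 (SE 0.212, adjusted p = 0.56), followed. Bst2 was called lower once fed control replicate 3 no longer entered the shared estimate of the spread, at the same difference of -0.49 (SE 0.119, adjusted p = 0.041), with 3.54% of all genes called and 3 members at an unadjusted p under 0.05, against 16.6% of all genes. DESeq2 also called Bst2 then, against 5.99% of all genes. As that library was left out for the members' own values, this call is a description too. The median of the members was -0.51 without fasted knockout replicate 2 and 0.10 without fasted knockout replicate 1.

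The fasting effect in knockout livers minus that in control livers gave no called member, against 0.0063% of all genes, with 1 at an unadjusted p under 0.05, against 7.19%, and 0 called by DESeq2, against 0.391%. The median was 0.22 with 30 of 40 above 0, against 49.3% of all genes. Without fed control replicate 3 it was -0.40 with 2 above 0, against 48.3% of all genes. In that fit 5 members had an unadjusted p under 0.05, against 7.6% of all genes. None was called there by either tool, against 0.00618% of all genes by edgeR and 0.247% by DESeq2. Stat2 had the smallest p in both fits, at -0.61 (SE 0.263, adjusted p = 0.67) and -0.75 (SE 0.261, adjusted p = 0.58). Over all libraries Cxcl9, at 1.70 (SE 0.934, adjusted p = 0.76), Ifit2, at 1.13 (SE 0.805, adjusted p = 0.83), and Gbp7, at 0.70 (SE 0.553, adjusted p = 0.86), followed. A fasting effect on any member was therefore not shown to differ between genotypes.

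Of the 39 other pathway genes tested, none was called in the knockout comparisons or the interaction, against 0.0% to 0.0315% of all tested genes. For fasting, 1 was called higher in control livers, against 4.14% of all genes called. In knockout livers 1 was called higher and 1 lower, against 2.48% of all genes called. Myd88, the adaptor through which most Toll-like receptors signal, rose with fasting in both genotypes, by 0.44 on the log2 scale in knockout livers (SE 0.105, adjusted p = 0.045) and by 0.70 in control livers (SE 0.105, adjusted p = 0.0037). It was at 32.5, 37.1 and 34.6 CPM in fasted knockout, 22.2, 26.4 and 27.9 CPM in fed knockout, 36.2, 42.5 and 41.5 CPM in fasted control and 25.6, 23.2 and 25.4 CPM in fed control livers. All fasted livers were above all fed livers, and fed control replicate 3 did not stand apart. Irf5, a factor that acts downstream of MyD88, was lower in fasted knockout livers, at 11.3, 13.7 and 16.8 CPM, than in fed knockout livers, at 27.0, 18.0 and 22.1 CPM (log2 difference -0.69, SE 0.154, adjusted p = 0.036). In control livers Irf5 was at 18.2, 17.5 and 18.8 CPM fasted and 17.7, 16.6 and 17.6 CPM fed.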

How the data were processed

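Whole-liver RNA of 12 mice was sequenced, in 4 groups of 3 that the series' design text calls biological replicates. RNA was extracted from frozen liver and made into strand-specific poly(A) libraries, per the labels' protocols. The authors deposited raw counts per gene and TPM, and the submitters' processing notes name bcl2fastq 2.19, Trimmomatic 0.38, HISAT2 2.1.0, featureCounts 1.6.3, DESeq2 1.24.0 and the mm10 build. How strand and multiply matching reads were handled, and which annotation was counted, is not stated in the labels or notes. By position, 5 members overlap another gene on the same strand and 12 overlap a gene on the opposite strand. Rtp4, with 4150 counts over the libraries, overlaps Masp1, with 45066, on the opposite strand. The effect of these overlaps on the counts was not tested.

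Deposited counts were tested with edgeR 4.0.16 (TMM scaling, filterByExpr, robust quasi-likelihood F test, 2-sided) in 1 fit of 12 libraries with a mean per group. The standard error is the log2 difference over the square root of F. P-values were adjusted by Benjamini-Hochberg over all 15862 genes tested, with a threshold of 0.05. The procedure was checked on simulated counts, for the comparison of fed knockout and fed control livers. The simulation gave every gene the same spread and held no library that stood apart. It therefore does not show how members are called in the presence of a library like fed control replicate 3. Deposited TPM, which sum to 1000000 in each library, were used to compare levels between genes. CPM are counts scaled by library total and TMM factor. Gene overlaps were read from GENCODE annotation of the same build.

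The members and the lists of pathway genes and markers were chosen with earlier results of these data known. The genes named with tests are those past the threshold and, where fewer than 4 passed, the 4 with the smallest p in each comparison. Mx1, Ifi44 and Irf7 without fed control replicate 3 follow the same rule in that fit, and other values were chosen for the text after they were seen. Alternatives were DESeq2 1.42.0 without independent filtering, no filter on low counts, other scalings, fits of the compared groups alone, a replicate block, and leaving out each library. Leaving out fed control replicate 3 together with the block or DESeq2 was chosen after seeing the data.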

Additional observations from a re-analysis of the deposited data

How the results depend on the processing

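Over the members, no call was gained or lost, by fit or scaling, in the knockout comparisons or the interaction. In control livers, DESeq2 called 2 members for fasting, against 7.56% of all genes. Once fed control replicate 3 was left out, DESeq2 called 3, against 5.73% of all genes, and the replicate block called 1. Leaving out each library gave 0 to 1. In knockout livers, DESeq2 without fed control replicate 3 called 1, against 5.99% of all genes, and leaving out each library gave 0 to 1. Both values of 1 needed fed control replicate 3 to be left out, where edgeR called 3.54% of all genes. Counts of all genes called with the block and over leaving out each library are given below.

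Leaving out each library in turn, the log2 difference between fed knockout and fed control livers ran from -1.58 to 0.08 for Cxcl9, -1.59 to 0.35 for Oasl2, -1.39 to 0.25 for Gbp3 and -1.26 to 0.36 for Ifit2. That of Usp18 over both feeding states ran from -0.89 to 0.10, and the interaction of Ifit2 from -0.11 to 1.51. The sign turned only without fed control replicate 3. Without that library, the replicate block and DESeq2 gave 0.09 and 0.09 for Cxcl9, 0.41 and 0.36 for Oasl2, 0.23 and 0.26 for Gbp3, 0.45 and 0.37 for Ifit2, 0.15 and 0.10 for Usp18 and -0.23 and -0.10 for the interaction of Ifit2. With the block, the members' median was then 0.417 for fasting in controls and -0.503 for the interaction.

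Counts of all genes called moved more. In fed livers they were 5 with no filter on low counts, 31 with DESeq2, 1 with the compared groups alone, 16 with DESeq2 without fed control replicate 3, and 0 to 1 over leaving out each library. In fasted livers they were 13, 41 and 1 under the same first 3 settings, 3 with the replicate block, 9 with the block and 66 with DESeq2 without fed control replicate 3, and 1 to 6 over leaving out each library. The mean knockout difference gave 4 with no filter, 47 with DESeq2, 34 with DESeq2 without fed control replicate 3, and 1 to 3 over leaving out each library. Fasting in controls gave 1199 with DESeq2, 312 with the compared groups alone, 206 with the block without fed control replicate 3, and 272 to 648 over leaving out each library. Fasting in knockout livers gave 811 with DESeq2, 232 with the block, 968 with DESeq2 without fed control replicate 3, and 88 to 573 over leaving out each library. The interaction gave 5 with no filter, 62 with DESeq2, 40 with DESeq2 without fed control replicate 3, and 1 to 3 over leaving out each library. The cause of these shifts was not tested.

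Replicate numbers did not pair the libraries: deviations of same-numbered libraries correlated at -0.284 to 0.184. With all 12 libraries the replicate block called 0 members in every comparison. With 3 libraries a group and 1 liver that carries most of the members' spread, differences between group means of the size of their standard errors are not resolved.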
